A study of Mus musculus with 6 samples.

Results

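Regions of open chromatin that were least accessible in memory group 2 innate lymphoid cells (ILC2s) were selected from an ATAC-seq count table of 57203 regions. A region was a member when the naive libraries averaged at least 5 CPM (the count scaled to a common library total) and the higher of both memory libraries reached at most 0.77 times the lowest of the 4 naive and effector libraries. There were 518 such regions, 1.71% of the 30295 regions past the naive floor and 0.906% of all regions. All cells were lung ILC2s of wild-type mice, female unless a label says otherwise, gated as Lin-CD25+ST2+. Memory cells came from mice given 30 µg of intranasal papain, a protease allergen, per day for 3 days and then left for 2 months. Effector cells came from mice given the same 3 days of papain with no rest, and PBS over 3 days gave the naive cells. Each group had 2 libraries, made from different pools of 2 to 4 mice with some 50000 cells per pool. Memory libraries differ from naive ones in both papain and 2 months of time, which cannot be told apart among these 6 libraries. From effector libraries, whose mice were given the same papain, they differ in the 2 months that followed. The 3 comparisons between groups share libraries.

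ILC2s are lymphocytes without antigen receptors that live in barrier tissues and make type 2 cytokines when alarmins such as IL-33 reach them. After an allergen has gone, some of them persist and answer a later challenge more readily, which is what the word memory refers to here. ATAC-seq cuts and tags DNA where the transposase Tn5 can reach it, so a high count marks an accessible stretch such as an active promoter or enhancer, and a low count marks a stretch held in nucleosomes or used by few of the cells. Promoters of many housekeeping and developmental genes are rich in CpG dinucleotides, and those of tissue-restricted genes often are not.

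The library totals ran from 11995095 to 20591102 counts. The sort label was checked on gene starts. The start of Gata3, the lineage factor, had 109 and 111 CPM in memory, 116 and 104 CPM in effector and 96.1 and 108 CPM in naive libraries. The starts of Il1rl1, which encodes ST2, and Il2ra, which encodes CD25, held between 44.3 and 75.04 CPM in the 6 libraries. The start of Rora, another factor of ILC2s, was weak, with 1.5 and 1.94 CPM in memory, 2.08 and 2.68 CPM in effector and 4.24 and 2.01 CPM in naive libraries. Of genes that other cells use, Cd3e, a T cell receptor subunit gene, had 2.75 and 7.43 CPM in memory, 4.91 and 6.59 CPM in effector and 6.25 and 7.16 CPM in naive libraries at its start. The epithelial gene Epcam had 5.002 and 6.46 CPM in memory, 8.67 and 8.66 CPM in effector and 5.94 and 10.05 CPM in naive libraries. The part of these in the results was not tested. No region in the table covered a start of Icos or Thy1, nor of Ncr1, Csf1r, Cdh5 or Sftpc, which mark NK cells, macrophages, endothelium and alveolar epithelium. The 50% of regions with the lowest mean CPM held 5.88% and 6.37% of the memory counts, 9.05% and 9.31% of the effector counts and 6.46% and 6.97% of the naive counts, so weakly accessible regions as a whole took a smaller share in both memory libraries than in the other 4. Its part in the selection was not tested. P-values rest on the spread between the 2 pools within a group, estimated over all groups together and drawn towards that of other regions.

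Of the 518 regions, 94 covered the start of at least one RefSeq gene, and the RefSeq promoter sequence, 250 bases before to 50 bases after the start on GRCm38.p6, is shown for 5 genes that the results below turn on. They run from CpG-rich to CpG-poor, and CG dinucleotides are in capitals in the sequences, which read 5′ to 3′ on the strand of the gene. Bend5, a gene of a BEN domain protein, has 21 CpG sites and a GC content of 56.7% (chr4:111414756-111415055, plus strand).

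Bend5: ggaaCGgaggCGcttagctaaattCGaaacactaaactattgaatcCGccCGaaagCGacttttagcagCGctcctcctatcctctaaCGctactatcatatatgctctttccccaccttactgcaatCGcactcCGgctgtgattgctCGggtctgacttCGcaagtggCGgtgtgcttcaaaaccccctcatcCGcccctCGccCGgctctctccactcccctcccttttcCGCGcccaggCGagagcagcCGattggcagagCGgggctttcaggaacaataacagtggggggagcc

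The potassium channel gene Kcnk10 has 2 starts, each in a region of its own. The promoter in the region with the lower ratio has 18 CpG sites and a GC content of 64.3% (chr12:98575078-98575377, minus strand), and the other has 7 CpG sites and a GC content of 51% (chr12:98578164-98578463, minus strand).

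Kcnk10 lower ratio: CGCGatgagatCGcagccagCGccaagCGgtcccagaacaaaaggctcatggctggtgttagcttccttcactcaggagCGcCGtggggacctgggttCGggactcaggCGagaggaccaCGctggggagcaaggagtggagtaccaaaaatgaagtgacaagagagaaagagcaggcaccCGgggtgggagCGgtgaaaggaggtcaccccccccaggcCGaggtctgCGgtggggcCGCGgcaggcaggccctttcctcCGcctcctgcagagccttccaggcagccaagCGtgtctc

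Kcnk10 other start: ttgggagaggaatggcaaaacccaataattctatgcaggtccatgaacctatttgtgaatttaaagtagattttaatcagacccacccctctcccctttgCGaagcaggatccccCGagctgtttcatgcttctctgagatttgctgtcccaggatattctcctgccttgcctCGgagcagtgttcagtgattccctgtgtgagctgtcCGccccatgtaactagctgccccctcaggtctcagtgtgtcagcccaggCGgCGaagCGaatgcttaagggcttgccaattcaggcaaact

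Ptgs2 encodes cyclooxygenase 2, the inducible enzyme of prostaglandin synthesis. Its promoter has 16 CpG sites and a GC content of 59.3% (chr1:150099781-150100080, plus strand), and the motif search below found the letters CACGTG, an E-box, in it.

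Ptgs2: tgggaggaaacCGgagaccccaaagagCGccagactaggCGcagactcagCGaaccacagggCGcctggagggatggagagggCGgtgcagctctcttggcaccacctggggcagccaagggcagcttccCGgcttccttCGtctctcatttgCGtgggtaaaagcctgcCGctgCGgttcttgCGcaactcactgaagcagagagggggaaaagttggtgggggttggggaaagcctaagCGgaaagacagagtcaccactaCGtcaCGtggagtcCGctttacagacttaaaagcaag

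Pla2g4a encodes the cytosolic phospholipase A2 that frees arachidonic acid for the cyclooxygenases. Its promoter has 6 CpG sites and a GC content of 45.3% (chr1:149961241-149961540, minus strand).

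Pla2g4a: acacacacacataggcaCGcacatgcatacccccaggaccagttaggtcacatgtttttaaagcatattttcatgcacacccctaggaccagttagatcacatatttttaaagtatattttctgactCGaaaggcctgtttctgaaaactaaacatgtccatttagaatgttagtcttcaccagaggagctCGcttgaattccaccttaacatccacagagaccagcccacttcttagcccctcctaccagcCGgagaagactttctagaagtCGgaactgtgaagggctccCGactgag

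Dpp4 encodes CD26, a peptidase of the lymphocyte surface. It has the fewest CpG sites of the promoters shown, with 4 CpG sites and a GC content of 45.3% (chr2:62412182-62412481, minus strand).

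Dpp4: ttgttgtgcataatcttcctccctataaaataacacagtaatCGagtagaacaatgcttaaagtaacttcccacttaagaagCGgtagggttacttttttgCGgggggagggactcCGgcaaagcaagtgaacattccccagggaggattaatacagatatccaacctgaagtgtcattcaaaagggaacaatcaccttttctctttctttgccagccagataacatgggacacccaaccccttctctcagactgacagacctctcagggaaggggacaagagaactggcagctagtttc

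The members were weakly to moderately accessible regions whose median was highest in effector cells. The median member measured 4.67 and 4.42 CPM in memory, 10.3 and 10.4 CPM in effector and 8.25 and 8.1 CPM in naive libraries. The other 29777 regions past the naive floor had medians of 18.9 and 19.9 CPM in memory, 20.04 and 20.06 CPM in effector and 18.97 and 19.5 CPM in naive libraries. Members together took 0.324% and 0.304% of the memory counts, against 0.703% and 0.692% of the effector counts and 0.552% and 0.549% of the naive counts. Of the members, 348 (67.2%) averaged under 10 CPM in naive cells, 122 lay between 10 and 20, 41 between 20 and 40, and 7 above. The share of regions that were members was 4.13% below 10 CPM and 0.0916% above 40 CPM. The memory values rest on few counts. The median member had 56 and 91 counts in memory replicates 1 and 2, and the smallest count was 15. These values chose the members and are given as a description.

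**Figure D1:**
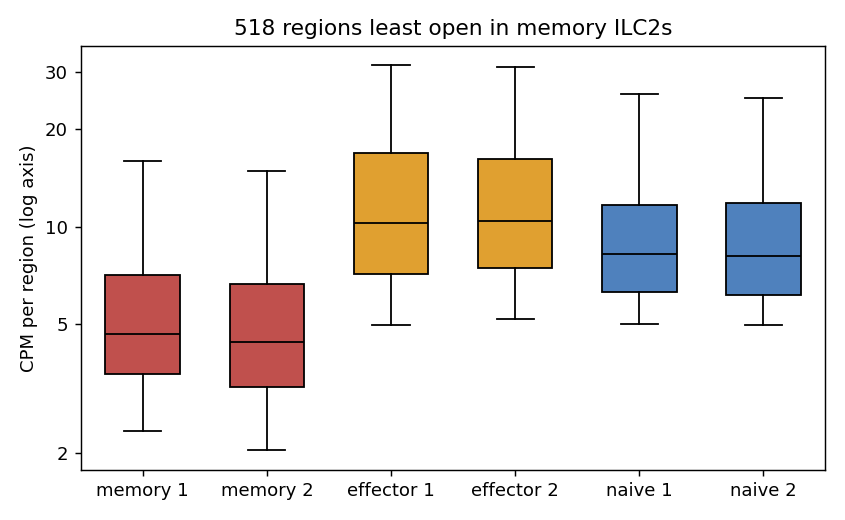
CPM of the 518 members (vertical log axis) in each of the 6 libraries, with boxes for the quartiles, a line for the median and whiskers from the 5th to the 95th percentile. The medians are 4.67 and 4.42 CPM in memory, 10.3 and 10.4 CPM in effector and 8.25 and 8.1 CPM in naive libraries.

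The cut was also made with a library left out. The value left out did not choose the regions, but it is set against values that did, which were chosen low for memory and high for the others, so part of each share below is fixed by the choice and the shares are a description. Both memory libraries lay below the other 4 libraries at 3131 regions, 10.3% of those past the floor. When the same cut was made with memory replicate 2 and without replicate 1, 1452 regions passed, and the value of replicate 1, which had not been used, lay below the other 4 libraries at 1067 of them (73.5%), against 24.3% of all regions past the floor. Chosen with replicate 1 and without replicate 2, 1494 regions passed and replicate 2 lay below the other 4 at 989 (66.2%), against 18.6% of all. Without effector replicate 1 or 2 the cut gave 678 and 573 regions, and the library not used lay above both memory libraries at 92.3% and 98.8% of them, against 35.6% and 35.8% of all regions past the floor. Without naive replicate 1 or 2 it gave 1047 and 880 regions, with 82.9% and 87.95% on that side, against 31.75% and 34.8% of all. The limit itself divides neighbours. The 3 members nearest to it, a region inside Ppp3ca and regions on chromosomes 1 and 10 with no gene within 100 kb, had ratios of 0.7694 to 0.7697, and the 3 regions just outside, at Pax5, Pdp1 and Slc22a23, had 0.771.

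The same cut made with another group as the low one, and the mirrored cut with memory high, gave 567 regions least open in effector cells, 217 least open in naive cells and 79 most open in memory cells. The naive floor makes a region that is low in naive cells harder to pass, so the 217 cannot be set against the others directly. Regions least open in effector cells were stronger, with a median of 20.98 CPM in naive cells against 8.17 CPM for the members.

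The lowest ratio of memory to the other libraries stood near Rybp, which encodes a subunit of the Polycomb repressive complex 1. The region chr6:100313792-100314859, 26.4 kb from the gene, had 1.92 and 1.55 CPM in memory, 15.5 and 12.4 CPM in effector and 5.17 and 5.5 CPM in naive libraries. The higher memory value was 0.371 times the lowest of the others, and the 3 groups did not overlap. The region with the next lowest ratio, chr19:15751420-15752746, lies 152 kb from the nearest protein-coding gene and had 5.75 and 5.68 CPM in memory, 18.8 and 19.9 CPM in effector and 17.4 and 15.02 CPM in naive libraries. The effector and naive libraries lay between 15.02 and 19.9 CPM, and both memory libraries were far below them.

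The next regions by ratio had low values in both memory libraries. The region inside Matn2, which encodes the matrix protein matrilin 2, had 2.08 and 1.36 CPM in memory, 6.32 and 7.99 CPM in effector and 6.17 and 5.26 CPM in naive libraries. The one 13.9 kb from Efnb2, the gene of the guidance ligand ephrin B2, had 3.5 and 1.46 CPM in memory, 9.95 and 8.54 CPM in effector and 9.1 and 9.52 CPM in naive libraries. It had the largest difference from naive cells among all members, with a log2 fold change of −1.94 ± 0.35 (SE). The start region of Bend5, shown above, had 2.5 and 1.41 CPM in memory, 5.72 and 6.59 CPM in effector and 7.02 and 5.85 CPM in naive libraries. Effector and naive libraries overlapped at Efnb2 and Bend5. At Matn2 both effector values lay above both naive values, though not on TMM-scaled CPM.

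The 2 start regions of Kcnk10 differed in level. At the start with the lower ratio (chr12:98574081-98575415) the values were 1.75 and 1.65 CPM in memory, 13.4 and 10.002 CPM in effector and 6.09 and 4.02 CPM in naive libraries. At the other (chr12:98577721-98578654) they were 6.59 and 4.61 CPM in memory, 20.8 and 21.5 CPM in effector and 11.03 and 12.8 CPM in naive libraries. In both, memory was lowest, as the cut requires, and effector was highest with no overlap. The effector rise over naive was called at both (log2 1.13 ± 0.30 SE, edgeR adjusted p = 0.0151, and log2 0.73 ± 0.22 SE, edgeR adjusted p = 0.0286). Leaving out naive replicate 2 (adjusted p = 0.15) or effector replicate 1 (0.204) ended the first call, and leaving out any of the 4 naive and effector libraries ended the second (0.0764 to 0.174).

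The other regions among the 12 lowest, near or in Khdrbs3, Zdhhc7, Ccbe1, Wipf3 and Socs2, had ratios from 0.435 to 0.457 and naive values between 5.2 and 9.56 CPM. Khdrbs3 encodes an RNA-binding splicing regulator, Zdhhc7 a palmitoyltransferase, Ccbe1 a secreted factor of lymphatic growth and Wipf3 an actin regulator. Socs2, the gene of a suppressor of cytokine signalling that STAT5 induces, had a region 21.3 kb away with 2.33 and 2.38 CPM in memory, 6.86 and 8.66 CPM in effector and 6.79 and 5.2 CPM in naive libraries.

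The 8 most accessible members kept clear signal in memory cells and had ratios from 0.619 to 0.759, above those of the 12 lowest. Of these 8, 5 exceed the limit of 0.77 on TMM-scaled CPM and would then not be members, with ratios of 0.7703 at Bach2, 0.787 at Med12l, 0.795 at Ccdc112, 0.798 at Lrmda and 0.854 at Chsy3. The start region of Il6ra, which encodes the IL-6 receptor chain, had 26.5 and 28.5 CPM in memory, 52.8 and 41.8 CPM in effector and 52.8 and 58.6 CPM in naive libraries. A region inside Bach2, the gene of a repressor that holds lymphocytes back from effector fates, had 39.1 and 33.02 CPM in memory, 55.6 and 59.2 CPM in effector and 53.1 and 59.3 CPM in naive libraries. A region inside the tetraspanin gene Cd9, which also covers a start of Gm28809, had 28.01 and 26.4 CPM in memory, 59.6 and 55.8 CPM in effector and 45.4 and 45.2 CPM in naive libraries. Memory was lowest at all 3, as the cut requires, by ratios of 0.6802, 0.737 and 0.619. Effector and naive libraries overlapped at Bach2. At Il6ra both effector values lay below both naive values, and at Cd9 above. The other strong regions lay at Chsy3, a chondroitin synthase gene, near Ccdc112 and Ptger2, and in Med12l and Lrmda, with naive means from 39.5 to 56.6 CPM.

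Foxp1, a forkhead factor that keeps naive T cells quiescent, had more members than any other gene. Of its 24 regions past the naive floor 6 were members, spread over 434 kb of chromosome 6 (98842649 to 99276160). The member with the lowest ratio (chr6:99187823-99189424, inside the gene) had 2.17 and 1.99 CPM in memory, 8.47 and 8.36 CPM in effector and 5.4 and 6.15 CPM in naive libraries. The one with the highest effector level (chr6:99035205-99036780) had 5.5 and 5.2 CPM in memory, 30.1 and 16.5 CPM in effector and 10.5 and 9.28 CPM in naive libraries. The rise in effector over naive cells was called there (log2 1.15 ± 0.26 SE, edgeR adjusted p = 0.00646), a call that ended when effector replicate 1 was left out (adjusted p = 0.22). The 4 others had ratios from 0.576 to 0.764, and at chr6:99251920-99253865 both effector values (6.72 and 9.45 CPM) lay below both naive values (10.3 and 10.2 CPM). The lower memory level was not limited to the members. Of the 18 other Foxp1 regions 15 had a log2 fold change of memory over naive below 0, with a median of −0.24, against 44.7% below 0 and a median of 0.03 among all other regions past the floor. On TMM-scaled CPM one of the 6 members (chr6:99241489-99242469) exceeds the limit, with a ratio of 0.779.

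**Figure D2:**
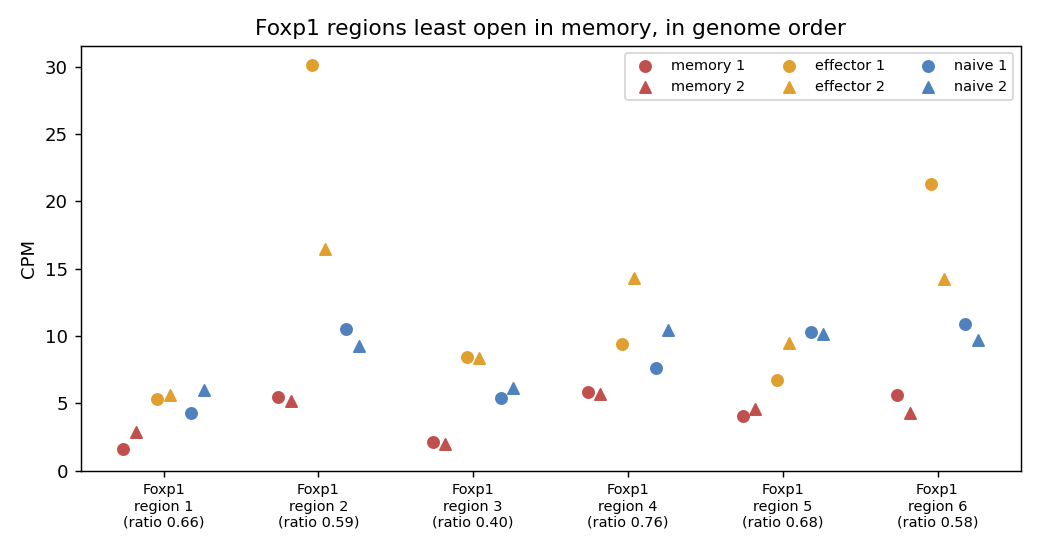
CPM (vertical axis) of the 6 members assigned to Foxp1, in genome order, with circles for replicate 1 and triangles for replicate 2 of memory, effector and naive cells. The memory points are lowest at every region, as the cut requires. Effector levels run from below naive (region 5) to 30.1 and 16.5 CPM (region 2).

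Zbtb16 encodes PLZF, a factor of innate lymphocyte precursors, and 3 of its 10 regions past the floor were members. The strongest (chr9:48806005-48807493) had 13.1 and 13.1 CPM in memory, 17.5 and 24.8 CPM in effector and 18.5 and 21.5 CPM in naive libraries. Its ratio is 0.817 on TMM-scaled CPM, past the limit. The log2 fold change of memory over naive was below 0 at all 10 regions, the 7 others ranging from −0.74 to −0.15. Zc3h12c, the gene of an endoribonuclease of the Regnase family that degrades cytokine transcripts, had 3 members among 4 regions, between 31.6 and 70.3 kb from the gene. The one with the lowest ratio had 4.42 and 5.24 CPM in memory, 18.02 and 17.5 CPM in effector and 10.1 and 16.5 CPM in naive libraries. Lrmda had 3 members among 6 regions past the floor, and Tns1, the gene of the adhesion protein tensin 1, had 3 among 9. Cd24a, which encodes the small surface glycoprotein CD24, had 2 regions past the floor and both were members. The stronger (chr10:43577853-43580455) had 10.4 and 6.41 CPM in memory, 14.99 and 16.3 CPM in effector and 20.4 and 19.2 CPM in naive libraries. In all, 36 genes had 2 or more members and held 80 of the 481 members that had a gene within 100 kb. Some of these genes have many regions past the floor, with 2 members of 38 at Inpp4b and 2 of 34 at Atxn1. Nothing is therefore read from the number of such genes. Among regions past the floor in genome order, 14.5% of members had another member next to them, against 3.16% of the other regions.

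Members at prostaglandin genes were few and are described one by one. Phospholipase A2 frees arachidonic acid, the cyclooxygenases turn it into prostaglandin H2, and receptors such as EP2, which Ptger2 encodes, sense prostaglandin E2. Of 73 regions past the floor at genes for neuropeptide, prostaglandin and leukotriene receptors and their enzymes, 3 were members (4.11%, against 1.71% of all regions), at Ptgs2, Ptgs1 and Ptger2. On TMM-scaled CPM the ratio at Ptgs1 is 0.811, past the limit, which leaves 2. The median log2 fold change of memory over naive over all regions of the list was 0.0033. The start region of Ptgs2 (chr1:150099266-150100529) had 5.25 and 2.14 CPM in memory, 23.1 and 22.3 CPM in effector and 8.41 and 8.99 CPM in naive libraries. The effector libraries stood far above the other 4 and memory replicate 2 lowest. The rise in effector over naive cells was called (log2 1.29 ± 0.29 SE, edgeR adjusted p = 0.00681), a call that ended when effector replicate 1 was left out (adjusted p = 0.0728). The start region of Ptgs1, the gene of the constitutive cyclooxygenase, had 3.83 and 3.25 CPM in memory, 5.18 and 7.5 CPM in effector and 5.48 and 6.92 CPM in naive libraries. Effector and naive libraries overlapped there. A region 1.46 kb from Ptger2 had 27.3 and 31.4 CPM in memory, 45.7 and 44.8 CPM in effector and 43.4 and 41.9 CPM in naive libraries. The start of Ptger2, in contrast, had 96.2 and 85.7 CPM in memory, 107 and 83.8 CPM in effector and 112 and 94.5 CPM in naive libraries, so memory and the other groups overlapped at the promoter.

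Pla2g4a stands next to Ptgs2 on chromosome 1 and belongs to none of the gene lists. It was picked out after its values were seen. Its start region (chr1:149960671-149961689) had 2.33 and 2.19 CPM in memory, 4.84 and 5.61 CPM in effector and 6.02 and 5.03 CPM in naive libraries and lies 138 kb from the Ptgs2 member. A region between both, 48.2 kb from Pla2g4a, missed the limit with a ratio of 0.792 and had 4.42 and 3.64 CPM in memory, 5.58 and 9.45 CPM in effector and 8.64 and 7.04 CPM in naive libraries. Memory was lowest at all 3 regions, which the cut fixes for the members at Pla2g4a and Ptgs2. Only the region between them was free to differ, and nothing is read from it.

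**Figure D3:**
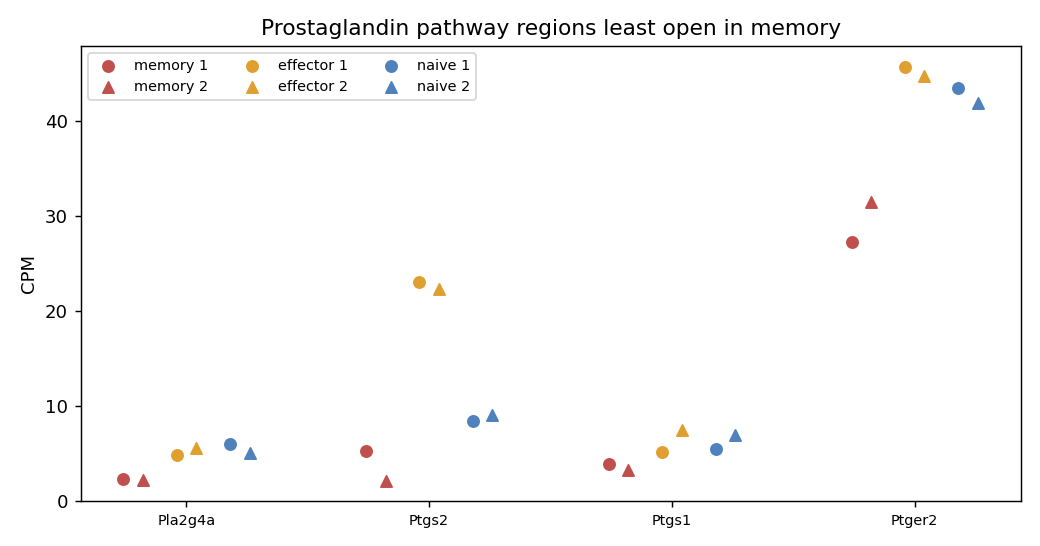
CPM (vertical axis) at the members assigned to Pla2g4a, Ptgs2, Ptgs1 and Ptger2, with circles for replicate 1 and triangles for replicate 2 of memory, effector and naive cells. Memory points are lowest at each region, as the cut requires, and effector points at Ptgs2 reach 23.1 and 22.3 CPM.

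The shares of members at ILC2 genes are set beside the 1.71% over all regions past the floor. Of 279 regions past the floor at 27 ILC2 receptor and factor genes, 5 were members (1.79%), 3 of them in Zbtb16. A region inside Icos, which encodes a costimulatory receptor, had 7.17 and 7.28 CPM in memory, 19.3 and 16.3 CPM in effector and 15.2 and 12.5 CPM in naive libraries. A region 6.39 kb from Il2ra had 9.17 and 9.32 CPM in memory, 29.2 and 20.1 CPM in effector and 15.7 and 15.1 CPM in naive libraries. Of the 69 regions at type 2 cytokines and effector products 0 were members, nor was any of the 119 at residence, adhesion and migration genes, the 68 at SWI/SNF genes or the 58 at interferon response genes. Lists of this size hold few members at the overall share, so nothing is read from a count of 0. The median log2 fold change of memory over naive over all regions of the type 2 list was 0.21, against −0.01 over all 56007 tested regions.

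Members at genes of lymphocyte memory and quiescence numbered 8 of 256 (3.13%), of which 6 were those of Foxp1, and the others lay at Bach2 and at Tob1, an antiproliferative gene, with a ratio of 0.693. The list of AP-1 and NF-kB subunits with immediate early genes had 4 of 191 (2.09%). The region 40.4 kb from Nfkbiz, which encodes the atypical inhibitor IκBζ, had 7.67 and 7.09 CPM in memory, 26.1 and 25.2 CPM in effector and 13.96 and 14.8 CPM in naive libraries. Its effector level rose over naive (log2 0.74 ± 0.18 SE, edgeR adjusted p = 0.011), a call ended by leaving out either naive library or effector replicate 1 (adjusted p from 0.0602 to 0.103). The regions near Atf3, Zfp36l1, an mRNA decay factor, and Bcl3, an NF-kB cofactor, had ratios of 0.676, 0.6602 and 0.7196. Over all regions past the floor the share was 1.71%.

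The remaining lists had 0 to 2 members each, and the share over all regions past the floor was 1.71%. Cytokine and costimulatory signalling had 1 of 166 (Socs2) and inhibitory receptors and regulatory genes 1 of 185 (Cd160, ratio 0.757). Chromatin and DNA methylation enzymes had 2 of 131, at the start of Kdm5b, a demethylase of histone H3 lysine 4, and inside Kat2b, a histone acetyltransferase. The Kdm5b region had 9.5 and 9.52 CPM in memory, 19.8 and 14.3 CPM in effector and 14.2 and 15.8 CPM in naive libraries. Cell cycle genes had 2 of 80 (near E2f3 and Ccne1) and glycolysis, lipid and mTOR genes 2 of 119. Of these, a region inside Rptor, the gene of the mTORC1 subunit raptor, had 2.75 and 3.01 CPM in memory, 12.5 and 8.54 CPM in effector and 5.24 and 4.79 CPM in naive libraries, and its effector rise over naive (log2 0.98 ± 0.28 SE, edgeR adjusted p = 0.026) missed the threshold under a loess offset on abundance (adjusted p = 0.0549) and with either naive library or effector replicate 1 left out (0.0793 to 0.324). The circadian list had 1 of 54, near Npas2, a clock factor gene. Housekeeping genes had 0 of 45.

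Markers of other cell types were examined in the same way, beside the 1.71% over all regions past the floor. Of 16 T cell regions past the floor 1 was a member (inside Themis), of 2 B cell regions 1 (near Ebf1, a B cell factor), and of 20 regions of lung epithelium, endothelium and stroma 1 (near Pdgfra, a fibroblast receptor). The 13 NK cell and ILC1, 18 ILC3, 13 myeloid and 22 mast cell and basophil regions held 0 members. Lists this small hold few members at the overall share, so nothing is read from these counts. The summed level over all 17 B cell regions was 27.8 and 33.9 CPM in memory, 55.9 and 59.5 CPM in effector and 42.2 and 40.3 CPM in naive libraries, and none of the 8 B cell genes had a region at its start. This sum moved the way the members did, and its part in the result was not tested. The sums over the T cell list (584 and 593 CPM in memory, 562 and 562 CPM in effector, 572 and 578 CPM in naive) and the stromal list (469 and 474, 486 and 502, and 440.3 and 456 CPM in the same order) placed memory above at least one other group, and those of the mast cell list were 485 and 494 CPM in memory, 474 and 500 CPM in effector and 527 and 541 CPM in naive libraries. The myeloid sums were 328 and 333, 369 and 380, and 341 and 332 CPM in that order, those of NK cells and ILC1s 309 and 304, 282 and 278, and 313 and 279 CPM, and those of ILC3s 409 and 467, 436 and 433, and 395 and 437 CPM. Fewer cells of a type and less open chromatin per cell cannot be told apart in pooled cells.

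Between effector and naive libraries a minority of the members was called different, and most of those calls were higher in effector cells. EdgeR's quasi-likelihood test of effector against naive libraries, adjusted over all tested regions at 0.05, called 73 members higher (14.1%) and 3 lower (0.579%). The share called higher was 11.5% over all tested regions and 5.69% over regions past the naive floor, and the share called lower was 4.98% and 8.8%. The cut compares memory with the lowest of naive and effector libraries, so a region that is low in effector or in naive cells passes it less easily. The values of both groups entered the cut, so the surplus of higher over lower members is not independent of how they were chosen. Both effector libraries lay above both naive libraries at 274 members (52.9%), against 24% of regions past the floor, and below at 39 (7.53%), against 30.2%. The median log2 fold change was 0.12 over the members, −0.14 over the other regions past the floor and 0.00253 over all tested regions. The counts moved with single libraries. Leaving out effector replicate 1 gave 24 higher and 0 lower calls (4 lower at an unadjusted p under 0.05), leaving out naive replicate 1 gave 36 and 1, naive replicate 2 gave 35 and 1, and effector replicate 2 gave 56 and 1. TMM scaling taken from the 20% highest regions, which put the median over all tested regions at 0.197 on the log2 scale, gave 118 and 1.

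Several rises had effector libraries well apart from the other 4. Inside Pou2f2, which encodes the lymphocyte factor OCT2, levels were 3.0 and 4.13 CPM in memory, 29.9 and 25.98 CPM in effector and 5.94 and 6.92 CPM in naive libraries (log2 2.03 ± 0.22 SE, edgeR adjusted p = 2.14e-05 for effector against naive). Some 43.6 kb from Map4k3, a kinase gene of nutrient signalling, they were 6.5 and 6.9 CPM in memory, 35.7 and 37.2 CPM in effector and 12.9 and 13.8 CPM in naive libraries (log2 1.36 ± 0.17 SE, edgeR adjusted p = 7.66e-05). Effector libraries were apart from the other 4 at both regions, and memory lay below naive, as the cut requires. Regions inside Baiap2, an actin scaffold gene, Chst11, a chondroitin sulphotransferase gene, and Pkd1l2 rose by 1.66 ± 0.22, 1.62 ± 0.22 and 1.26 ± 0.17 in log2 units (± SE, with edgeR adjusted p from 9.59e-05 to 0.000142). These 5 calls held under each of the 15 alternative fits. Near Rybp the effector rise was log2 1.29 ± 0.26 SE, edgeR adjusted p = 0.0029, and leaving out effector replicate 1 ended the call (adjusted p = 0.0732).

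The 3 members that fell in effector cells had lower values still in memory, as the cut requires of every member. A region beside Sardh, the gene of sarcosine dehydrogenase, had 13.01 and 12.6 CPM in memory, 17.01 and 21.2 CPM in effector and 28.6 and 30.5 CPM in naive libraries (log2 −0.72 ± 0.17 SE, edgeR adjusted p = 0.00846 for effector against naive). Leaving out naive replicate 2 (adjusted p = 0.0505) or effector replicate 1 (0.115), or TMM from the highest regions (0.0521), ended that call. The start region of Med12l, a Mediator subunit gene, had 22.2 and 25.3 CPM in memory, 34.8 and 34.7 CPM in effector and 43.5 and 44.2 CPM in naive libraries (log2 −0.43 ± 0.14 SE, edgeR adjusted p = 0.0474). It missed the threshold under 9 of the 15 alternative fits, with adjusted p up to 0.318. The last, on chromosome 14 (chr14:105524526-105525317) and 215 kb from a gene, had 1.25 and 1.51 CPM in memory, 2.35 and 2.13 CPM in effector and 5.55 and 4.79 CPM in naive libraries (log2 −1.29 ± 0.35 SE, edgeR adjusted p = 0.0187), a call ended by leaving out naive replicate 1 or either effector library (adjusted p from 0.0991 to 0.125). Effector and naive libraries did not overlap at any of the 3, and memory lies below both by the cut.

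**Figure D4:**
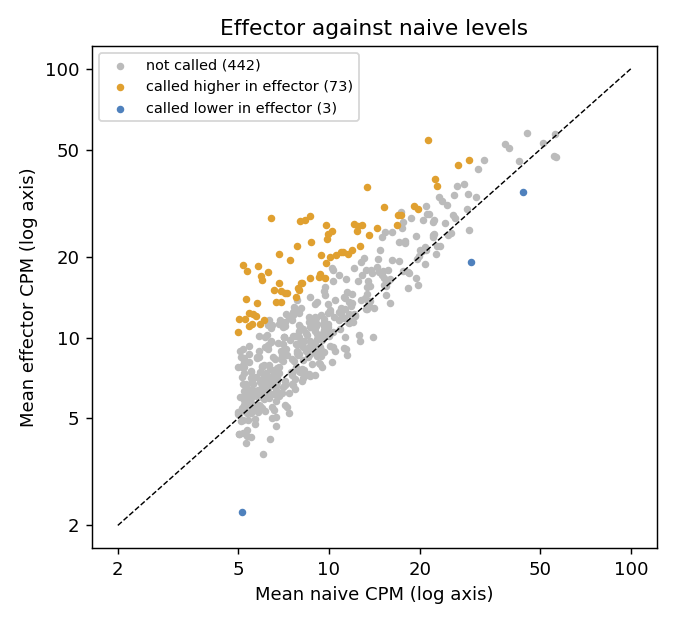
Mean effector CPM (vertical log axis) against mean naive CPM (horizontal log axis) of the 518 members, coloured by the call of effector against naive, with a dashed line of equality. Of the points, 73 are called higher in effector cells, 3 lower and 442 neither.

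The memory differences that define the members are given for their size. The log2 fold change of memory over naive had a median of −0.79 and ran from −1.94 to −0.39, and that of memory over effector had a median of −0.96 and ran from −2.90 to −0.34. The other regions past the floor had medians of 0.03 and 0.16. Among the members, 29 (5.60%) were called lower than naive and 353 (68.1%) lower than effector, against 0.0714% and 13.6% of all tested regions. The members were chosen on these values, so nothing is read from those shares. Without memory replicate 2 the number called lower than naive was 0 and that called lower than effector 208 by the same edgeR test, with 297 and 340 at an unadjusted p under 0.05. With another library left out the numbers were 3 (naive replicate 1) to 46 and 216 (effector replicate 1) to 346, and DESeq2 on all 6 libraries called 61 and 302.

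Position and sequence were not used in the choice. A gene start lay in 94 of 518 members (18.1%) and in 31.8% of the other regions past the floor, with the order of both shares depending on the level. Below 10 CPM in naive cells, where most members lie, 19.3% of members and 11.1% of other regions covered a start. Between 10 and 20 CPM the shares were 14.8% and 21.8%, and between 20 and 40 CPM they were 14.6% and 39.5%. Of the regions below 10 CPM chosen by the same cut on another group, 4.07% of those least open in effector, 5.88% of those least open in naive and 3.13% of those most open in memory cells covered a start. Regions below 10 CPM were 21.7% of the 567, 47% of the 217 and 40.5% of the 79 in these sets. Over all levels the sets held 59, 11 and 2 regions at starts, so their shares rest on few regions. These shares are a description with no test. Dpp4, whose CpG-poor promoter is shown above and which was picked out after its values were seen, had 7.17 and 6.31 CPM in memory, 13.2 and 15.002 CPM in effector and 12.6 and 13.7 CPM in naive libraries at its start. Within 1 kb of either end of a protein-coding gene lay 20.7% of members and 37.3% of the others, and 62.7% and 71.6% overlapped a gene body. Median widths were 1411 and 1480 bp. Members made up between 0.927% (chromosome X) and 2.5% (chromosome 9) of the regions past the floor on a chromosome.

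**Figure D5:**
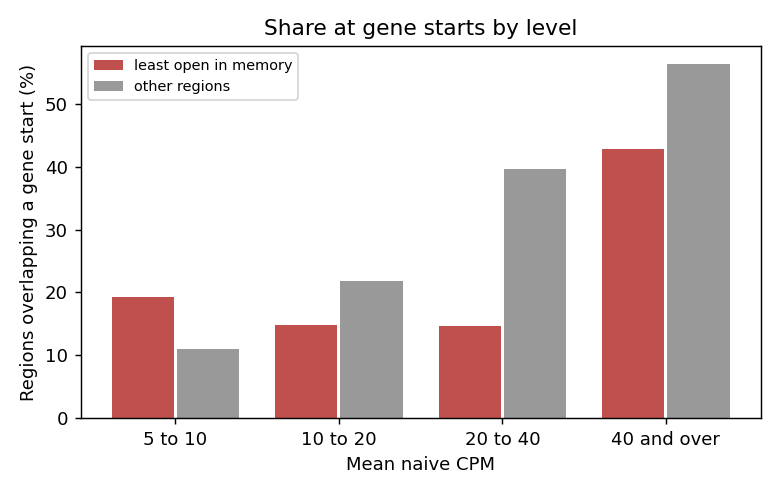
Percentage of regions that cover a RefSeq gene start (vertical axis) in 4 classes of mean naive CPM, for the members (left bar) and the other regions past the floor (right bar). Members stand above the others in the class of 5 to 10 CPM (19.3% and 11.1%) and below in the other 3.

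Promoters at members were found across the GC range. For the 94 member regions at starts, the mean GC content of the promoters they cover was under 55% in 33, between 55% and 65% in 20 and at least 65% in 41. The share of start regions that were members was 1.604% at a GC content under 45%, 1.38% at a GC content of 45% to 55%, 0.372% at 55% to 60%, 0.613% at 60% to 65%, 1.31% at 65% to 70% and 1.21% above. These shares rest on 6, 27, 7, 13, 22 and 19 members in that order. The classes also differ in level, with median naive values from 21.9 to 43.9 CPM. The shares were not matched on level or tested, so no trend with GC content is read from them. The median log2 fold change of memory over naive over all start regions past the floor lay between −0.02 and 0.04 in each class. The ratio of observed to expected CpG had a median of 0.64 in the 126 promoters at members, 0.775 in the 12820 promoters at the other regions and 0.384 in all 32851. These promoters are windows at annotated starts, and some overlap almost fully, as at Mir670hg. Each window counts separately in these medians and in the motif search below. The order depended on the level. Over start regions of 5 to 10 CPM, which hold 67 of the 94 members, the medians were 0.669 in members and 0.589 in others, with GC contents of 64.3% and 58.3%. Between 10 and 20 CPM they were 0.525 and 0.702, with GC contents of 53.4% and 59.7%. Bend5 and Dpp4, printed above, stand at 0.904 and 0.26.

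Letters of 13 motifs were searched on both strands of these 300-base windows. No motif contains another, and matches of different motifs may overlap. CCGGAA, the core that ETS factors bind, was in 7.14% of member promoters, 29.1% of promoters at other regions and 14.9% of all promoters. TGANTCA, the AP-1 motif, was in 10.3%, 4.79% and 7.81% in that order. The CRE motif TGACGTCA was in 0.794%, 3.39% and 1.79%. The motif AGATAA of Gata3 and its relatives was in 11.9%, 6.11% and 11.2%. The RUNX motif TGTGGT was in 12.7%, 12.4% and 16.8%. GGGCGG, the GC box, was in 55.6%, 65.4% and 35.7%, and CCAAT, the NF-Y motif, in 34.1%, 37.8% and 37.4%. The E-box CACGTG was in 9.52%, 10.4% and 7.15%, and the KLF motif CACCC in 66.7%, 63.4% and 57.5%. TGGAAA, an NFAT motif, was in 16.7%, 16.3% and 21.4%, and the STAT motif TTCNNNGAA in 3.97%, 6.61% and 8.3%. The NF-kB consensus was in 0%, 1.84% and 1.63%, and the interferon-stimulated response element in 2.38%, 2.91% and 3.44%. Some shares rest on few member promoters, with the ETS core in 9 of 126, the AP-1 motif in 13 and the CRE motif in 1. The shares were not matched on level or GC content and were not tested. No enrichment or depletion at members is therefore read from them. A match is a run of letters, not a bound site.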

How the data were processed

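The authors deposited a table of raw counts per region for 57203 regions, used here as deposited. The submitters' processing notes name mm10 and, in no stated role, edgeR 3.34.0, ChIPseeker 1.28.3, Bowtie2 2.5.3, deepTools 3.5.4, fastp, bedtools 2.31.1 and MACS2. How regions were merged, reads filtered and counted, and which base convention the starts use is not given in the sources used here.

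CPM divides counts by library totals. In R 4.3.3 with edgeR 4.0.16, regions were filtered with filterByExpr (56007 kept, 1196 removed; all 518 members kept), scaled by TMM and fitted by robust quasi-likelihood (1 coefficient per group) with 3 residual degrees of freedom, tested on simulated data. Tests were two-sided with Benjamini-Hochberg adjustment over all tested regions at 0.05. SE is the log2 fold change over the square root of F. Genes are the nearest protein-coding genes of GRCm38.p6 within 100 kb, and need not be those a region acts on. Alternatives were RLE, total counts, TMM on the 20% highest regions, a loess offset (span 0.3), no filter, no robust estimation, DESeq2 1.42.0, only naive and effector libraries, an adjusted p under 0.01, a replicate block and each library left out.

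The text names the 12 members with the lowest ratio, the 8 with the highest naive CPM, up to 8 genes with several members, up to 3 members per list, up to 5 effector calls per direction and 3 regions on either side of the limit, and some of these only by count. The 22 lists hold 473 genes. Members, lists and naming rules were chosen with earlier results of these data known. PCR copies without identifiers are not independent molecules, so precision at low counts may be overstated.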

Additional observations from a re-analysis of the deposited data

How the results depend on the processing

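The median log2 fold changes of memory over naive kept their sign and moved by less than the SD over the 4 library pairs under each scaling, DESeq2, the replicate block and each library left out (−0.86 to −0.73). That of memory over effector ran from −1.08 to −0.86 with a library left out, and came to −1.08 on total counts and −1.21 on TMM from the 20% highest regions. The cut gave 401 regions on TMM-scaled, 348 on RLE-scaled and 338 on loess-corrected CPM, sharing 380, 330 and 305 with the 518. Limits of 0.70 and 0.85 gave 269 and 1004, naive floors of 2 and 10 CPM gave 1255 and 170, and leaving out a library gave 573 to 1494. Gene end shares were 16.2% with no margin and 30.7% with 5 kb, and 87.6% of members had a gene within 50 kb. Effector over naive calls numbered 118 higher and 1 lower on TMM from the highest regions, 37 and 1 at an adjusted p under 0.01, and 24 to 77 higher and 0 to 3 lower with a library left out. Of the 15 named regions called there, 10 lost the call without effector replicate 1, and 0 changed sign. At 46 of 68 named regions TMM scaling moved the ratio by less than the spread between memory replicates. Beside those given in the report, the named regions at Sardh, Pkd1l2, Kat2b, Pdgfra and Ppp3ca, the one inside Khdrbs3 and both edge regions without a gene exceed the limit on that scale. No label says that replicate numbers pair the libraries. Differences between replicates 1 and 2 correlated across regions by 0.24 (effector and naive), 0.27 (memory and naive) and 0.19 (memory and effector), and the replicate number as a block gave 108 higher and 6 lower effector calls and 254 members below naive. Depth limits the weakest members, whose memory counts start at 15. Except for the fewer samples or stricter limits that some alternatives impose by construction, the cause was not tested.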

Other observations

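Values follow for start regions of 9 transcription factor genes among the 94 start members. They were picked out by hand after their values were seen and belong to no list, so they are a description and say nothing about such genes as a group. The start region of Pax2, a factor of kidney development, had 6.59 and 6.99 CPM in memory, 13.7 and 12.9 CPM in effector and 10.03 and 9.88 CPM in naive libraries. That of Lhx1, a LIM homeobox gene, had 6.34 and 7.04 CPM in memory, 11.97 and 10.6 CPM in effector and 9.72 and 10.2 CPM in naive libraries, and that of Six2, a factor of nephron progenitors, had 3.33 and 2.04 CPM in memory, 5.11 and 4.76 CPM in effector and 5.48 and 5.32 CPM in naive libraries. Hmx3, a homeobox gene of the inner ear, had 7.67 and 7.92 CPM in memory, 13.2 and 11.7 CPM in effector and 11.2 and 10.5 CPM in naive libraries at its start. The start of Foxb2, a forkhead gene, had 6.84 and 5.78 CPM in memory, 18.2 and 16.3 CPM in effector and 9.33 and 9.4 CPM in naive libraries. The memory libraries were lowest at all 5, as the cut requires. On CPM, effector values lay above naive values at Pax2, Lhx1, Hmx3 and Foxb2 and below them at Six2. On TMM-scaled CPM the effector and naive values overlapped at Lhx1 and Hmx3. The ratios at Six2, Hmx3 and Foxb2 exceed the membership limit on that scale, so these regions would then not be members. Those at Pax2 and Lhx1 stay within it. Of the 5 genes the edgeR test called Foxb2 (log2 0.79, adjusted p = 0.0195).

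Memory was also lowest, again by the cut, at the starts of 4 other factor genes. The start of Bcl11a, a factor of B cell and early lymphoid development, had 7.75 and 5.39 CPM in memory, 13.7 and 15.4 CPM in effector and 13.3 and 13.5 CPM in naive libraries. Ascl2, a basic helix-loop-helix gene, had 3.83 and 4.42 CPM in memory, 8.07 and 7.26 CPM in effector and 6.09 and 6.68 CPM in naive libraries at its start. The start of Ovol2, an epithelial factor gene, had 5.75 and 5.54 CPM in memory, 13.3 and 8.54 CPM in effector and 10.9 and 8.99 CPM in naive libraries, and effector and naive libraries overlapped there. At Zfhx3, a homeobox gene, the values were 3.5 and 3.84 CPM in memory, 8.47 and 5.31 CPM in effector and 9.49 and 6.86 CPM in naive libraries. On TMM-scaled CPM the ratio at Zfhx3 exceeds the membership limit, and those at Bcl11a, Ascl2 and Ovol2 stay within it.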
